A study of Mus musculus with 11 samples.

Results

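Collagens are the main structural proteins of the extracellular matrix, and this account describes the collagen genes of mouse sympathetic ganglia with and without apolipoprotein E. Members were the probe sets that the platform annotation assigns to a single gene whose symbol reads Col, a number, a and a number. The rule found 58 probe sets of 36 genes among 20380 single-gene probe sets of 12393 genes. By class they were 9 fibrillar genes (17 probe sets), 8 basement membrane genes (12 probe sets) and 19 other genes (29 probe sets). Col24a1, Col27a1, Col6a4, Col6a5, Col6a6, Col8a2, Col23a1 and Col28a1 were not analysed here.

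A collagen molecule is a triple helix of 3 chains, each made of glycine-rich repeats. Fibrillar collagens assemble into the tension-bearing fibres around nerve fascicles and vessels, and fibroblasts are their best-known source. Basement membrane collagens form sheets beneath endothelial cells and around Schwann cells and smooth muscle. The other collagens include the beaded filaments of type VI, the chains that decorate fibrils, short-chain networks and membrane-spanning forms.

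The samples were sympathetic ganglia, which house noradrenergic neurons with their glia, vessels and connective tissue, cut by laser capture from fresh-frozen tissue. One group held 6 arrays from apoE-/- mice, which lack the lipid carrier apolipoprotein E and are prone to atherosclerosis. The other group held 5 arrays from wild-type mice. All were male mice of the strain C57BL, aged 78 weeks, fed normal chow and obtained from the Jackson Laboratory. The labels do not tie an array to an animal, so the p-values measure only how these samples vary, which can be technical, and would be too small if an animal gave more than 1 array.

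The labels held in the data. Apoe gave signals of 7.2 to 268.2 in the Apoe-deficient arrays and 11830.3 to 19649.2 in the wild-type arrays, a log2 difference of -6.75 (SE 0.44, limma adjusted p = 1.88e-06). All 7 noradrenergic neuron markers with a probe set were past the filter described below, and their summed signal was 31449 to 54988 in Apoe-deficient and 43274 to 61029 in wild-type arrays. The mean log2 value of controls added at hybridisation was cut at its 2 largest gaps, which sorted the arrays into 3 levels. These means were 11.11 to 11.33 in the low, 12.05 to 12.26 in the middle and 12.73 to 13.42 in the high arrays. It is a technical difference that the labels do not mention. The low arrays were Apoe-deficient replicates 2, 3 and 4, with no wild-type array among them. The middle level held wild-type replicates 3, 4 and 5 beside Apoe-deficient replicate 5. Of the high arrays, wild-type replicates 1 and 2 faced Apoe-deficient replicates 1 and 6. Apoe-deficient replicate 1 also had the highest ratio of actin signal at the 3′ end to that at the 5′ end, 5.16 against 1.88 to 3.55 in the other 10 arrays. In bulk tissue, fewer cells of a type and less RNA per cell cannot be told apart.

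No collagen gene passed the test between the groups. Of the 36 genes, 21 had a probe set past the filter, which asked for a value over the 40th percentile (a signal of 110.4) in at least 5 arrays. Among those 21 genes, limma called 0 at an adjusted p under 0.05, where 1.93% of the 8433 genes tested were called, 1.26% higher and 0.676% lower. At an unadjusted p under 0.05 there were 6 collagen genes higher and 2 lower in the Apoe-deficient arrays, 8 of 21, where 20.3% of all genes tested had such a p, with 7.92% on the higher side. One of the 6 was Col20a1, which passed the filter only through Apoe-deficient arrays, so these counts support nothing by themselves. The median difference over the 21 genes was 0.09 on the log2(signal + 16) scale and 13 of them (61.9%) lay above 0, against a median of -0.04 and 43% over all genes tested. This scale understates the change of dim genes. The remaining 15 genes stayed below the filter with every probe set. They were Col2a1, Col4a3, Col4a4, Col4a5, Col4a6, Col7a1, Col9a2, Col9a3, Col10a1, Col12a1, Col13a1, Col17a1, Col19a1, Col22a1 and Col26a1.

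With all 58 probe sets tested and no filter, 1 was called, a probe set of Col1a1 that was higher in the Apoe-deficient arrays, where 0.765% of all 20380 single-gene probe sets were called, 0.55% higher and 0.216% lower. Another 14 collagen probe sets had an unadjusted p under 0.05, which made 12 higher and 3 lower in all, and 16.2% of all probe sets had such a p, with 7.78% on the higher side. Above 0 lay 13 of 17 fibrillar, 9 of 12 basement membrane and 13 of 29 other collagen probe sets, with medians of 0.24, 0.19 and -0.01, against 47.6% and a median of -0.02 over all probe sets. The plot of group differences by class sets these values side by side. Differences between the 3 class medians were not tested.

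**Figure D1:**
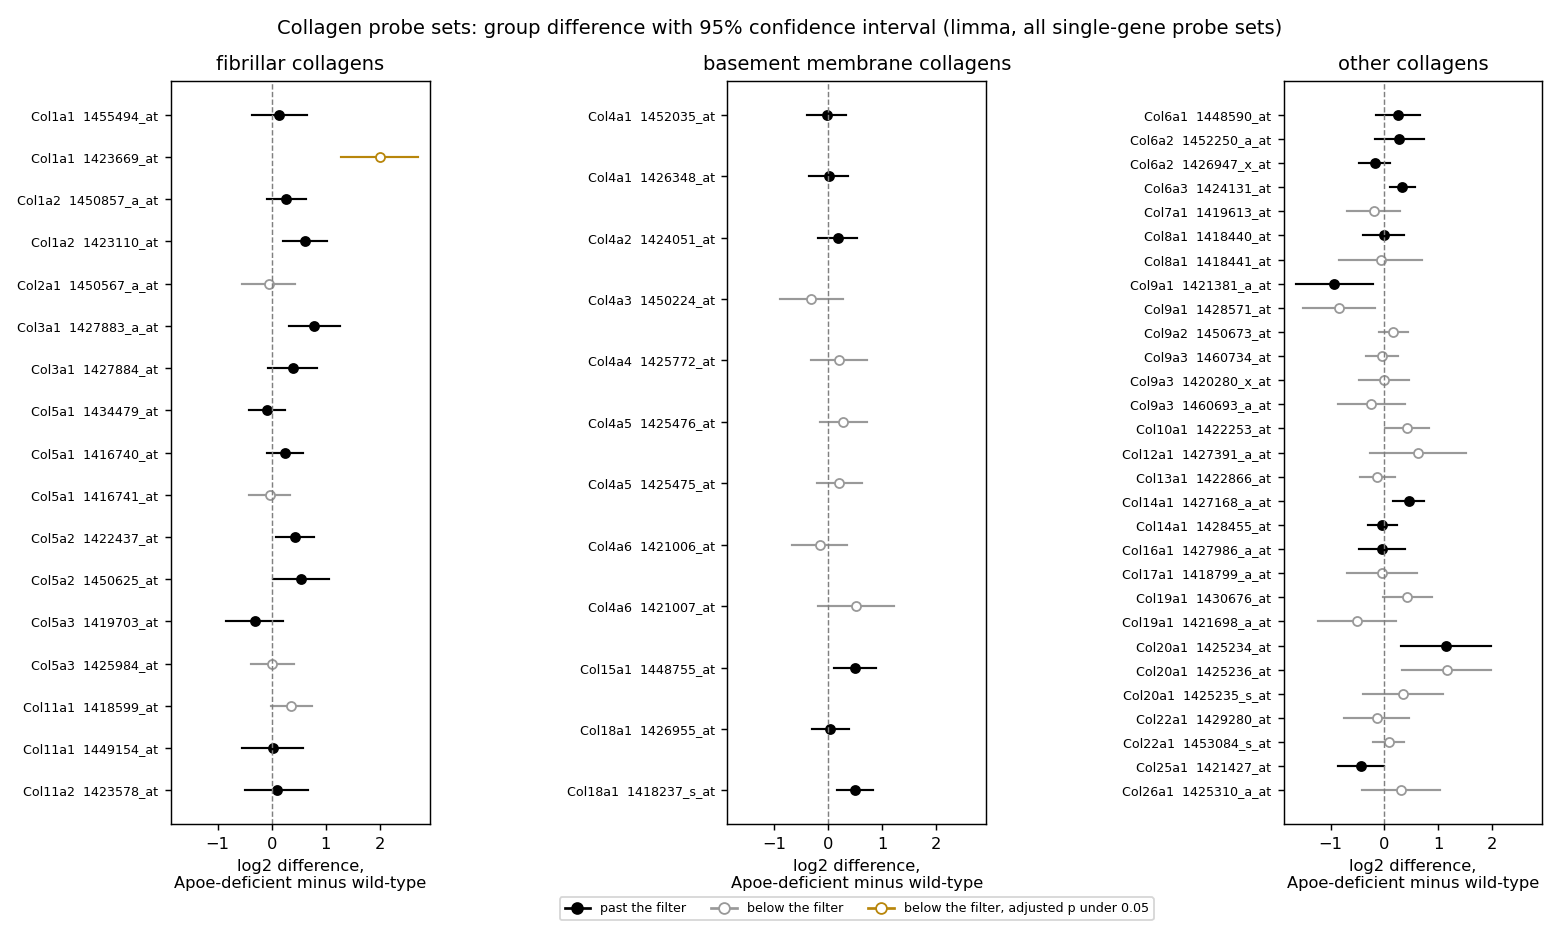
Log2 difference (Apoe-deficient minus wild-type) of each of the 58 collagen probe sets in 3 class panels, with 95% confidence intervals from the limma model over all single-gene probe sets; filled points are past the filter, open grey points are below it, and the open gold point is the called Col1a1 probe set. That probe set lies at 2.0, and most other intervals span 0.

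Array by array, Apoe-deficient replicate 1 stood out. It held the highest value of 18 of the 29 collagen probe sets past the filter. The same count over all probe sets was not made, so this is not shown to be particular to collagens. Mbp and Sparc also had their highest value in that array, while Th and Adipoq did not. The summed signal of the collagen probe sets was 20117 in that array, 12725 to 15284 in the other 5 Apoe-deficient arrays and 11744 to 13921 in the wild-type arrays. Without that array, 0 of the 20 collagen genes then past the filter were called, where 3.11% of all genes tested were. Their median difference was 0.02, but Col20a1 no longer passed the filter, so this median covers fewer genes than that over all arrays. With no filter, a dim Col20a1 probe set joined that of Col1a1 among the called probe sets, where 1.37% of all were called. Sparc joined P4ha1 among the called genes of the processing lists described below. Apoe-deficient replicate 1 was also the array of the highest actin end ratio given above, whose part in the result was not tested.

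Type III and type I collagens are the major fibre-forming collagens of soft connective tissue. Col3a1, the single chain of type III, had signals of 815.2 to 2013.3 with a median of 1473 in the 6 Apoe-deficient arrays. In the wild-type arrays its signals were 817.5, 614.5, 577.8, 871.2 and 1039.9. Apoe-deficient replicates 1 to 4 and 6 lay above every wild-type array, and Apoe-deficient replicate 5 lay among them, so the groups overlapped. Col3a1 had the smallest p of the collagen genes, with a difference of 0.79 (SE 0.22, limma adjusted p = 0.0747). It passed the threshold with array weights (0.83, limma adjusted p = 0.0308) and without Apoe-deficient replicate 5 (0.94, limma adjusted p = 0.0229). With that control level as a block it was 0.52 (limma adjusted p = 0.475), and it was 0.91 among the high arrays and 0.01 among the middle arrays. A dimmer Col3a1 probe set, which passed the filter with 4 Apoe-deficient arrays and 1 wild-type array, gave 0.39.

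Col1a1 and Col1a2 encode the chains of type I collagen. The brighter Col1a1 probe set stood for the gene, with signals of 153.2 to 301.3 and a median of 222.1 in the Apoe-deficient arrays. In the wild-type arrays it gave 198, 164.8, 217.3, 283.4 and 131.9. The ranges lay over each other, and the difference was 0.15 (SE 0.23, 95% interval -0.34 to 0.63, limma adjusted p = 0.743). The dimmer Col1a1 probe set gave 82.2 to 223.2 with a median of 145.3 in the Apoe-deficient arrays. It gave 19.3, 8, 25.4, 66.1 and 21.8 in the wild-type arrays. Every Apoe-deficient array lay above every wild-type array, as did 1.14% of all single-gene probe sets, while 0 collagen probe sets and 1.03% of all lay lower without overlap. This probe set rose by 2.0 (SE 0.33, limma adjusted p = 0.0141 over all 20380 probe sets), from a mean signal of 28.1 ± 22.2 (SD, n = 5) to 151 ± 59.7 (SD, n = 6). No wild-type array was over the filter level, so the size of the rise depends on the added constant: it was 2.67 with a pseudocount of 1 and 1.21 with 64, and stayed called at both.

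The dimmer Col1a1 probe set was over the filter level in 4 Apoe-deficient arrays and 0 wild-type arrays, which left it out of the test of filtered genes. It stayed called in each of the 11 fits that left out 1 array, between 1.81 and 2.30. With that control level as a block it was 2.37 (limma adjusted p = 0.0455), and it was 3.05 among the high arrays and 1.46 among the middle arrays. Without the 3 low arrays it was 2.28 and lost the call (limma adjusted p = 0.0729). That fit called 0.201% of all probe sets, against 0.765% with all arrays. The 2 Col1a1 probe sets moved little together, with a Pearson correlation of 0.32 and a Spearman correlation of 0.18 over the 11 arrays. Taken within each array, the log2 value of the dimmer minus that of the brighter was -0.52 ± 0.71 (SD, n = 6) in Apoe-deficient and -2.38 ± 0.49 (SD, n = 5) in wild-type arrays. This comparison was chosen after the values were seen and is given as a description. The plot of signals by array for paired probe sets shows both for the type I and type III chains.

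**Figure D2:**
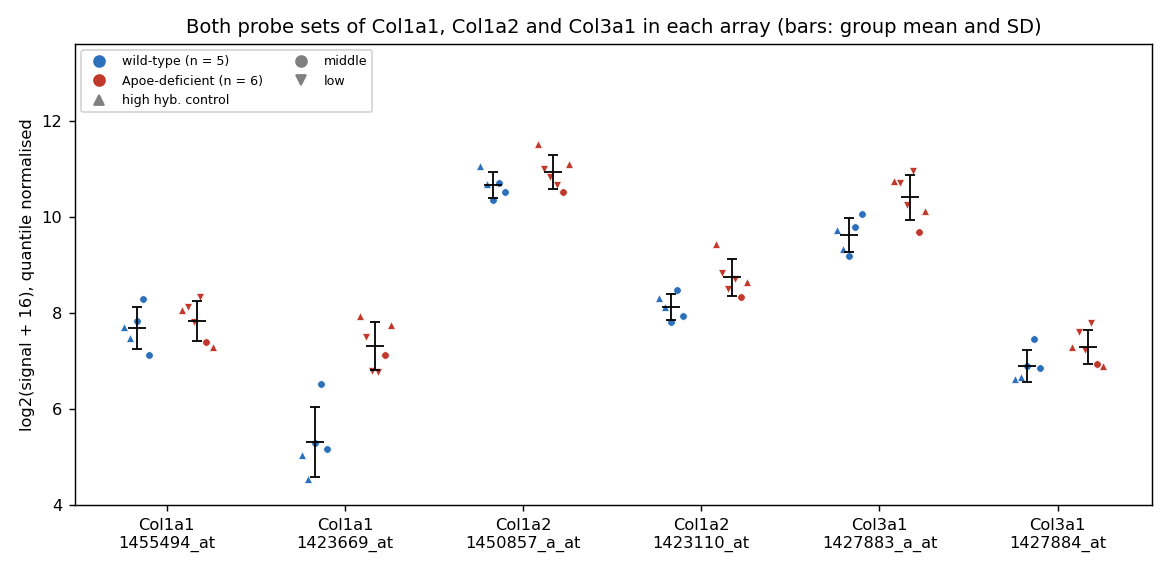
Log2(signal + 16) after quantile normalisation of both probe sets of Col1a1, Col1a2 and Col3a1, with 1 point per array (Apoe-deficient red, wild-type blue, marker shape for the hybridisation control level) and bars for group mean and SD. For Col1a1 the groups separate at the dimmer probe set, drawn second from the left, where the lowest Apoe-deficient signal was 82.2 and the highest wild-type signal 66.1, and overlap at the brighter one.

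Col1a2, whose chain pairs with that of Col1a1, had signals of 1437.4 to 2920.4 with a median of 1994 in the Apoe-deficient arrays. Its wild-type signals were 2078.7, 1589.7, 1294.9, 1675 and 1434.5, so the groups overlapped. The difference was 0.27 (SE 0.17, limma adjusted p = 0.362). Its other probe set gave 0.61 (SE 0.19, limma adjusted p = 0.157), and the 2 correlated at a Pearson r of 0.84 and a Spearman rho of 0.67 over the 11 arrays.

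The start regions of Col1a2 and Col3a1, bright genes of the fibrillar class, and of Col6a3, the gene whose groups did not overlap, are given to compare their letters. They are the 250 bases before the RefSeq gene start (build GRCm38.p6, 5′ to 3′ on the gene's strand), at chr6:4505368-4505617 on the plus strand for Col1a2, chr1:45311288-45311537 on the plus strand for Col3a1 and chr1:90843972-90844221 on the minus strand for Col6a3. Capitals mark the letters of the TATA box (TATAA), of the CCAAT box (CCAAT) and of the GC box (GGGCGG) on either strand.
Col1a2: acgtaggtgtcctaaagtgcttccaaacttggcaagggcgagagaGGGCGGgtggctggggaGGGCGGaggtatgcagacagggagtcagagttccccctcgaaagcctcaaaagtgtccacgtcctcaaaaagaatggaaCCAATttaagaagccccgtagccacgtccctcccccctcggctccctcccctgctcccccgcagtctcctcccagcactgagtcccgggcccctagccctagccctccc
Col3a1: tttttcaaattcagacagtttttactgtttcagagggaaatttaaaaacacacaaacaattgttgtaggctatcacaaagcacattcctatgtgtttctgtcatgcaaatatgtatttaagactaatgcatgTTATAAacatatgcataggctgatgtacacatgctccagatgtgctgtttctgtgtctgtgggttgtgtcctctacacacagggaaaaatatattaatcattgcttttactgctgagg
Col6a3: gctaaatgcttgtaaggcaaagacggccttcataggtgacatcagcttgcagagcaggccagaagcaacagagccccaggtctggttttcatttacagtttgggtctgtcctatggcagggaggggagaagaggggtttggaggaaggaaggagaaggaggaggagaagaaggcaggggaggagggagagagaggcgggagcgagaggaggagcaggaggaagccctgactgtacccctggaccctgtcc

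Col1a2 held a CCAAT and 2 copies of GGGCGG, Col3a1 held TATAA and overlapping it the same motif on the other strand (TTATA), and Col6a3 held none of these letters in this window. RefSeq promoter entries matched 27 of the 36 collagen genes, with 30 entries. TATAA stood in 7 of these 30 and in 22.8% of all 32851 promoters, CCAAT in 12 of 30 against 33.8%, and GGGCGG in 16 of 30 against 32.7%. A match is a run of letters and no measured binding.

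Type V and type XI collagens sit inside the larger fibrils and limit their width. Col5a2 had signals of 345.8 to 711.2 with a median of 546.4 in the Apoe-deficient arrays, against 419.1, 354.9, 340, 420.6 and 393.3 in the wild-type arrays. Apoe-deficient replicates 1 to 5 were above every wild-type array and replicate 6 was not. Its difference of 0.43 (SE 0.16, limma adjusted p = 0.164) came with 0.55 at the second probe set. Without Apoe-deficient replicate 6, Col5a2 passed the threshold (0.56, limma adjusted p = 0.0376). That fit called 2.86% of all genes tested, against 1.93% in the main fit. The RefSeq gene order places Col5a2 next to Col3a1 on chromosome 1, with 0 protein-coding genes between them, and the 2 genes had the lowest p-values of the fibrillar class. Col5a3 gave -0.32 (SE 0.24), with wild-type signals of 643.7 to 744.7 and a wider Apoe-deficient range of 325.6 to 1057.4. Col5a1, Col11a1 and Col11a2 lay between -0.08 and 0.09. Of the fibrillar class, 6 of 8 genes past the filter were above 0, with a median of 0.12.

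**Figure D3:**
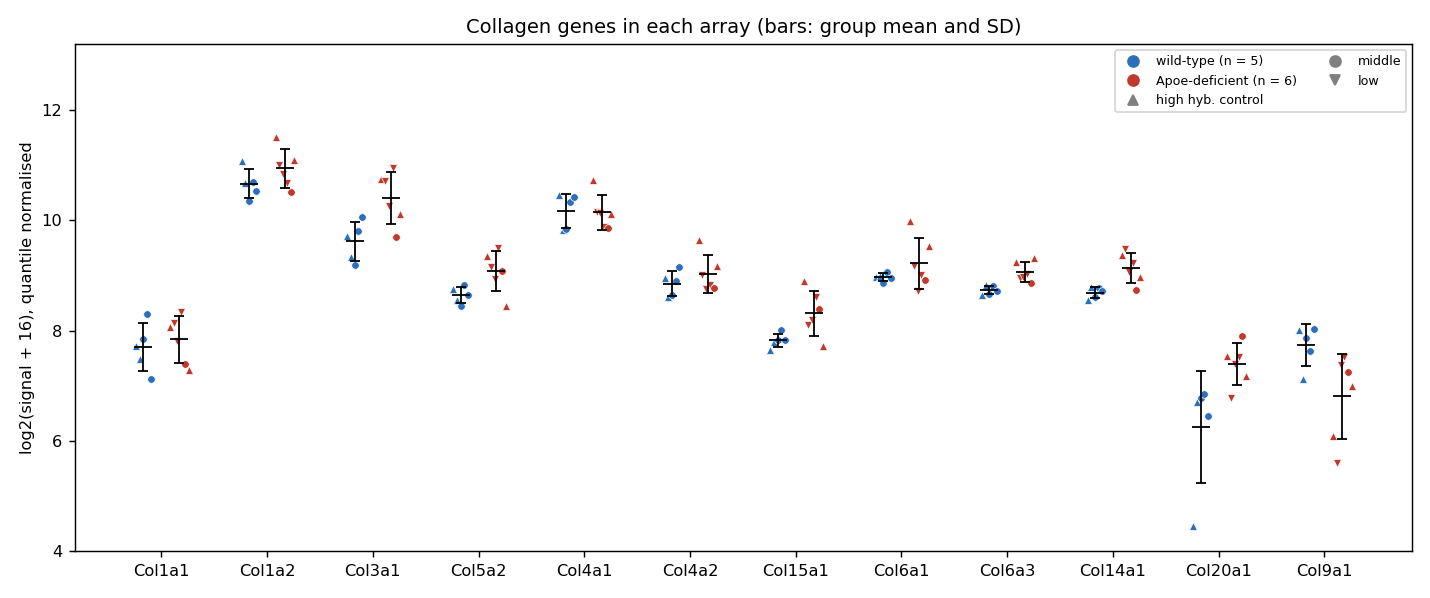
Log2(signal + 16) after quantile normalisation of 12 collagen genes, with 1 point per array (Apoe-deficient red, wild-type blue, marker shape for the hybridisation control level) and bars for group mean and SD. Col3a1 shows Apoe-deficient replicate 5 among the wild-type arrays, and Col6a3 shows all 6 Apoe-deficient arrays above the 5 wild-type arrays.

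Col4a1 and Col4a2 encode the chains of the common type IV network and are neighbours on chromosome 8. Col4a1 had signals of 915.1 to 1690.3 with a median of 1104 in the Apoe-deficient arrays, against 1362.5, 867.5, 907.7, 1271 and 1335.1 in the wild-type arrays. Wild-type replicates 1, 4 and 5 lay above every Apoe-deficient array but replicate 1, and wild-type replicates 2 and 3 below all of them. The difference was -0.02 (SE 0.17, 95% interval -0.39 to 0.34, limma adjusted p = 0.946), and leaving out 1 array in turn gave -0.14 to 0.046. Its other probe set gave 0.01. Col4a2 ran from 406.1 to 770.8 with a median of 469.8 in the Apoe-deficient arrays and gave 478.3, 365, 391.9, 443.9 and 564.2 in the wild-type arrays. It too overlapped between the groups, with a difference of 0.18 (SE 0.17, limma adjusted p = 0.554), and it was 0.055 without Apoe-deficient replicate 1.

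Col15a1 and Col18a1 encode the core proteins of basement membrane proteoglycans. Col15a1 had signals of 210.2 to 452 with a median of 293 in the Apoe-deficient arrays, against 189.5, 206.1, 214.5, 224.6 and 218.3 in the wild-type arrays. The lowest Apoe-deficient array, replicate 6, lay among the wild-type arrays and the other 5 lay above them. It differed by 0.50 (SE 0.18, limma adjusted p = 0.148), by 0.59 among the high arrays and by 0.50 among the middle arrays. Col18a1 gave 0.04 at the brighter probe set and 0.51 at the dimmer one. Of the basement membrane class, 3 of 4 genes past the filter lay above 0, with a median of 0.11. The type IV chains Col4a3, Col4a4, Col4a5 and Col4a6, known from kidney, lung and muscle, were all below the filter.

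Within each array, Col1a1, Col3a1 and Col6a1 were set against Col4a1, a chain of the basement membrane network. The within-array difference was the log2 value of the gene minus that of Col4a1. Only changes of this difference between groups carry meaning, since its level sets probe sets of unlike brightness side by side. For Col3a1 it was higher in the Apoe-deficient arrays by 0.82, and all 6 Apoe-deficient arrays lay above all 5 wild-type arrays. With the wild-type mean set at 0, the Apoe-deficient arrays lay at 0.56, 1.11, 0.67, 1.62, 0.38 and 0.56 and the wild-type arrays from -0.18 to 0.19. The 3 highest, 1.11, 0.67 and 1.62, were the low arrays (replicates 2, 3 and 4), a level with no wild-type array. The exact two-sided permutation p was 0.0043, or 0.013 after adjustment over the 3 pairs. For Col1a1 the change was 0.17 (exact p = 0.578, adjusted 0.578), and for Col6a1 it was 0.28 (exact p = 0.13, adjusted 0.195). Col4a1 had the lowest group difference of the basement membrane genes past the filter, -0.02 beside 0.04 for Col18a1, 0.18 for Col4a2 and 0.50 for Col15a1. Pairs with those other genes were not tested, so the result holds for Col4a1 and not for the class.

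The increase of Col3a1 against Col4a1 was 0.78 to 0.83 with other pseudocounts, with no quantile normalisation and with median centring. It was 0.60 with the mean of each gene's probe sets (exact permutation, adjusted p = 0.0974). Without the 3 low arrays it was 0.50, with an adjusted exact permutation p of 0.0536. With so few arrays this was the lowest p the test could give unless another pair was also extreme. The missed threshold there therefore decides nothing. The increase was 0.62 among the high arrays and 0.34 among the middle arrays, where no test could pass. Leaving out each array in turn gave 0.66 to 0.90, with adjusted p of 0.0238 to 0.0429 by the exact permutation test.

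**Figure D4:**
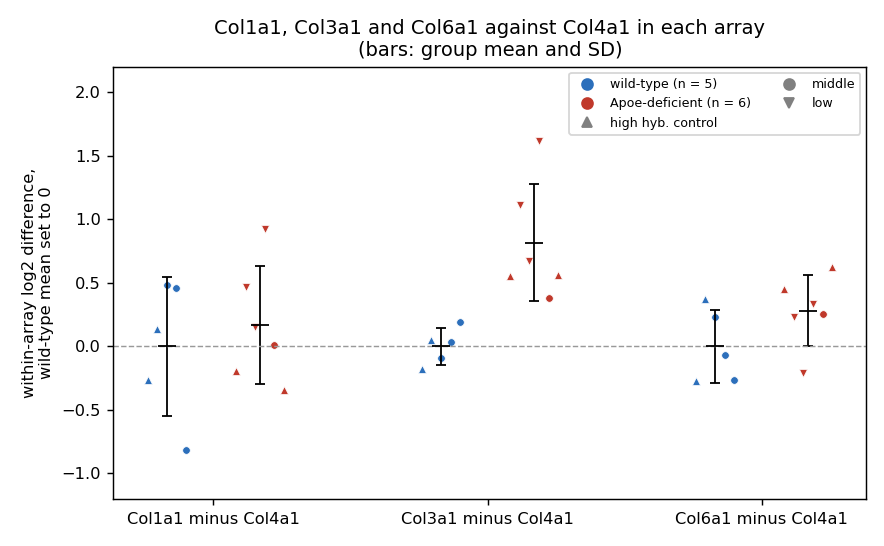
Within-array log2 difference of Col1a1, Col3a1 and Col6a1 from Col4a1, with the wild-type mean set at 0, 1 point per array for 6 Apoe-deficient (red) and 5 wild-type (blue) arrays and bars for group mean and SD. The groups separate for Col3a1, where the group means differ by 0.82, and overlap for Col1a1 and Col6a1.

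Type VI collagen forms beaded filaments that link cells to the matrix, and its chains assemble as Col6a1, Col6a2 and Col6a3. Col6a3 was the only collagen gene of the 21 whose groups did not overlap, where 1.46% of all genes tested were higher without overlap, and 0 collagen genes and 1.51% of all were lower without overlap. Its signals were 452.4 to 621.5 with a median of 497.6 in the Apoe-deficient arrays, against 388.2, 431.8, 399.6, 415.4 and 411.3 in the wild-type arrays. The difference was small and did not pass the test, at 0.33 (SE 0.11, limma adjusted p = 0.126). It was 0.54 among the high arrays and 0.13 among the middle arrays.

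Col6a1 had signals of 397.4 to 974.3 with a median of 534.8 in the Apoe-deficient arrays, against 489.2, 486.7, 453.4, 500.2 and 486.4 in the wild-type arrays. The wild-type values were close together, while Apoe-deficient replicates 1, 2 and 6 were above them and replicate 3 below. It differed by 0.26 (SE 0.18, limma adjusted p = 0.439), at 0.77 among the high arrays and -0.04 among the middle arrays. Without Apoe-deficient replicate 1 it was 0.10. Col6a2, its neighbour on chromosome 10, gave -0.18 (SE 0.13) at the brighter probe set and 0.28 at the dimmer.

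The fibril-associated collagens bind to the surface of fibrils. Col14a1 had signals of 418.1 to 716.7 with a median of 547.1 in the Apoe-deficient arrays, against 364.4, 417.5, 382.8, 403 and 410.4 in the wild-type arrays. On these signals the lowest Apoe-deficient array, replicate 5, lay just above the highest wild-type array, while the normalised values overlapped. The difference was 0.45 (SE 0.13, limma adjusted p = 0.0922). It passed with array weights (0.49, limma adjusted p = 0.0324) and without Apoe-deficient replicate 5 (0.53, limma adjusted p = 0.0356). These settings called 7.92% and 2.75% of all genes tested, against 1.93% in the main fit. A second Col14a1 probe set past the filter gave -0.04, so the difference belonged to 1 of the 2 probe sets.

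Col20a1 had the largest positive difference of the genes past the filter, 1.14 (SE 0.38, limma adjusted p = 0.126). Its signals were 86.7 to 229.2 with a median of 151.4 in the Apoe-deficient arrays, against 7.5, 92.4, 99.4, 87.5 and 77.6 in the wild-type arrays. It passed the filter through 5 Apoe-deficient arrays and 0 wild-type arrays, so the filter let it in only through the group where it was high. Wild-type replicate 1 was far below the rest, and without it the difference was 0.70 (limma adjusted p = 0.155). The other 2 Col20a1 probe sets were below the filter and gave 1.16 and 0.34.

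Col9a1, a chain of type IX collagen best known from cartilage, had the largest negative difference, -0.93 (SE 0.32, limma adjusted p = 0.143). Its signals were 29.9 to 166.8 with a median of 131.5 in the Apoe-deficient arrays, against 246.4, 127.5, 222.3, 169.9 and 252.3 in the wild-type arrays. Apoe-deficient replicates 1 and 2 were lowest, and the groups overlapped through wild-type replicate 2. The dimmer Col9a1 probe set gave -0.84. Of 8 chondrocyte markers other than collagens with a probe set, 1 was past the filter, Cnmd, which fell by 1.59 on the log2 scale (limma). The summed signal of the list was 299.8 to 581.2 in Apoe-deficient and 486.7 to 977.3 in wild-type arrays. That sum largely repeats Cnmd, whose mean signal was 107.6 in Apoe-deficient and 352.5 in wild-type arrays. Comp, below the filter, went the other way, at 51.2 against 36.2. The part of chondrocyte RNA in the Col9a1 value was not tested. Col25a1, a membrane-spanning collagen of nerve cells, was lower at -0.44 (SE 0.19, limma adjusted p = 0.225). Col16a1 and Col8a1 gave -0.04 and -0.01. Of the other collagens, 4 of 9 genes past the filter lay above 0, with a median of -0.01.

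Across 22 pairs of a gene's brightest probe set with another, 8 had differences of opposite sign, and of the 8 pairs with both past the filter, 4 did. Those 4 were Col14a1, Col4a1, Col5a1 and Col6a2. The collagen values therefore depend on which probe set stands for the gene, and the sequences of the probes were not used here.

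Among markers of other cells in the tissue, every gene of the macrophage list was called, and 0 genes of the fibroblast, endothelial, smooth muscle and Schwann cell lists were. No list was tested as a whole. Of 10 fibroblast markers other than collagens, 9 were past the filter and 0 were called (limma), with a median difference of 0.42, and their summed signal was 9773 to 16125 in Apoe-deficient and 7425 to 11119 in wild-type arrays. That sum largely repeats Dcn, whose mean signal was 9446 in Apoe-deficient and 6875 in wild-type arrays. Dcn, Lum and Fap were higher with limma adjusted p of 0.0866, 0.0889 and 0.099. Fbln1, Fbln2 and Pi16 had lower mean signals in the Apoe-deficient arrays. All 8 macrophage markers rose (limma), where 1.26% of all genes tested were called higher, and their sum was 7271 to 9907 against 4386 to 5772. All 7 endothelial markers were past the filter with 0 called, at 1240 to 2141 against 1289 to 2056. For smooth muscle and pericytes 7 of 8 were past the filter with 0 called, at 3123 to 5457 against 2805 to 5958. Schwann cell markers (4 past the filter, 0 called) summed to 12739 to 31058 against 13113 to 20356, and satellite glia markers (5 past the filter, 0 called) to 6851 to 12875 against 5541 to 11833. Of 5 adipocyte markers with a probe set, 4 were past the filter and 0 were called, with a median difference of -0.78 and sums of 2199.8 to 11910 against 4512 to 15446. Osteoblast markers (2 past the filter, 0 called) summed to 232.2 to 373.5 against 290.5 to 494, and skeletal muscle markers (1 past the filter, 0 called) to 207.2 to 411.5 against 306.1 to 531.6. The part of these cells in the Col3a1 and Col1a1 values was not tested.

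Of the genes that process and bind collagen, 39 were past the filter. P4ha1, a catalytic subunit of the enzyme that hydroxylates collagen prolines and so stabilises the triple helix, was called, 1 of 39 beside the 1.93% of all genes tested, a share near the background. Its signals were 255.4 to 437.9 with a median of 322.9 in the Apoe-deficient arrays, against 204.6, 182.9, 206.5, 207.5 and 248.4 in the wild-type arrays. The groups did not overlap, and P4ha1 rose by 0.61 (SE 0.14, limma adjusted p = 0.0405). It lost the call in 7 of the 11 fits that left out 1 array (limma adjusted p from 0.0245 to 0.119). Those 11 fits called 0.896% to 3.19% of all genes tested. Without the 3 low arrays the difference was 0.37 (limma adjusted p = 0.369), with their level as a block 0.42 (limma adjusted p = 0.213), and it was 0.46 among the high arrays and 0.36 among the middle arrays. Of all genes tested, 0.294% were called without the low arrays and 0.534% with the block. Of the 11 hydroxylation genes, 6 lay above 0, with a median of 0.02, and P4hb, its partner subunit, gave 0.19.

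The other 5 pathway lists had 0 genes called, against the same 1.93% of all genes tested. Over all 39 genes, 5 had an unadjusted p under 0.05, 4 of them higher, 19 lay above 0 and the median was -0.0021. Among 6 folding and export genes, the exit-site protein Mia3 gave -0.32 and the collagen chaperone Serpinh1 0.27. Among 3 propeptide cleavage genes, Pcolce, which enhances removal of the C-terminal propeptide, gave 0.55 (limma adjusted p = 0.16) and the protease Bmp1 gave -0.22. Pcolce signals were 1192.2 to 2993.8 in the Apoe-deficient arrays and 867 to 1236.9 in the wild-type arrays, with Apoe-deficient replicates 3 and 5 within the wild-type range. Among 3 cross-linking genes, Loxl3 gave -0.20 and Tgm2 0.28. Of 4 receptors and uptake genes, the collagen receptor Ddr1 gave -0.33 and Itgb1, the shared chain of collagen-binding integrins, gave 0.25. Of 12 basement membrane partners, the linker Nid2 gave 0.42 and the collagen-binding protein Sparc -0.36, which was called without Apoe-deficient replicate 1.

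**Figure D5:**
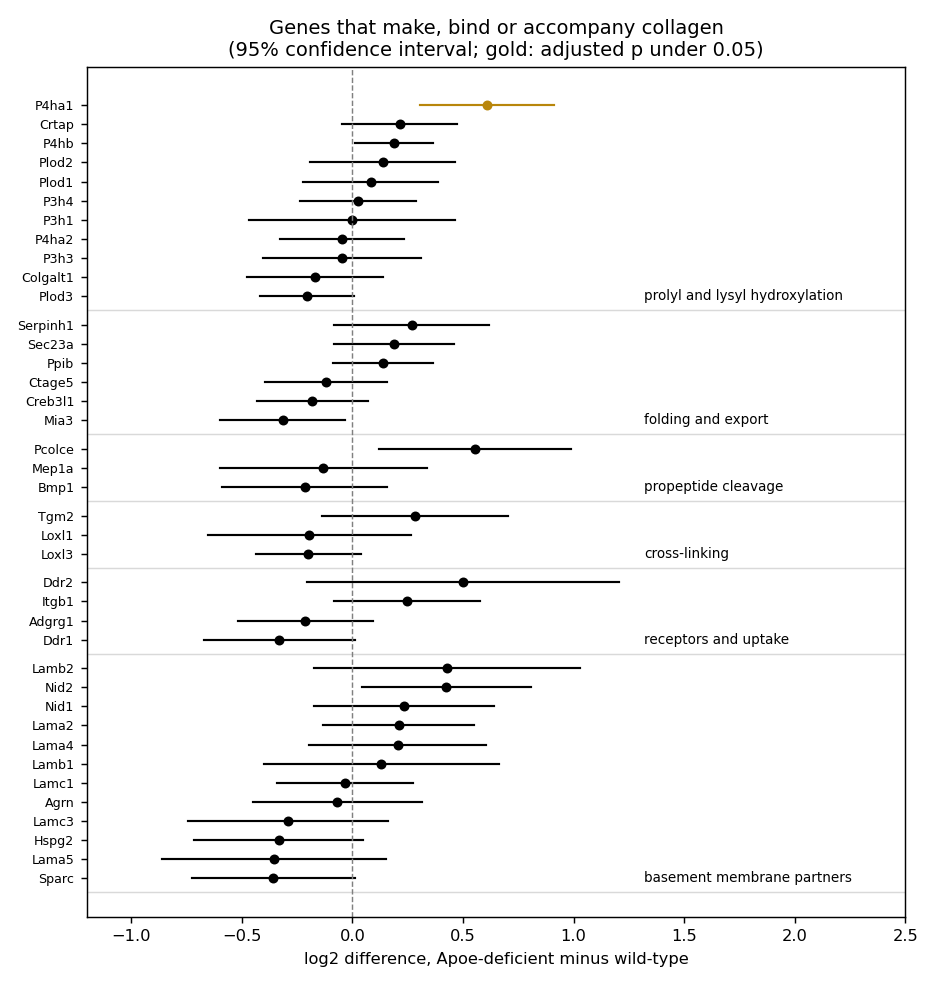
Log2 difference (Apoe-deficient minus wild-type) with 95% confidence intervals from limma for the 39 genes that modify, fold, export, cleave, cross-link, bind or accompany collagen. P4ha1 at 0.61 is the single gene past the threshold.

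The genes most like Col3a1 over the 11 arrays, by Pearson correlation among genes past the filter that are not collagens, were Ms4a6d (r 0.97, rho 0.99), Ifitm2 (r 0.93, rho 0.87), Tyrobp (r 0.92, rho 0.91), Clk1 (r 0.92, rho 0.82) and Fgl2 (r 0.91, rho 0.90). Ifitm2, Tyrobp and Fgl2 had adjusted p (limma) of 0.0254, 0.0247 and 0.0116, and so differed between the groups as well. The genes most like Col1a1 at its brighter probe set were Eef1akmt1 (r 0.87, rho 0.86), Jam3 (r 0.87, rho 0.76), Mocs2 (r 0.87, rho 0.86), Gadd45a (r 0.86, rho 0.81) and Sec62 (r 0.85, rho 0.76). These were the highest of 8433 genes, so the values describe the ranking only. The 11 arrays differ in group and in hybridisation level, and the values were not centred on group means. Differences between groups or levels therefore enter these correlations.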

How the data were processed

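Total RNA of 11 ganglion samples was hybridised to 1 Affymetrix array each. The authors deposited 1 linear intensity per probe set and array, made with GCOS 1.4 per the submitters' processing notes. How the signal was computed from its probes is a step not given in the sources used here. Every array had a 2% trimmed mean near 500.2, so the deposited intensities were already scaled. Precision is limited by the number of arrays.

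Quantile normalisation followed on log2(signal + 16). The filter asked for a value over the 40th percentile of the whole matrix in at least 5 arrays, and the single-gene probe set of highest mean stood for its gene. Group differences are Apoe-deficient minus wild-type, tested with limma 3.58.1 in R 4.3.3 (intensity trend, two-sided, Benjamini-Hochberg over all genes, threshold 0.05), and all adjusted p-values of genes come from it. The same model was run on all single-gene probe sets with no filter. Within-array differences of 2 genes were tested by exact permutation. Values by array were given for Col1a1, Col3a1, Col6a1, Col4a1, the 2 collagen genes of smallest p per class, the largest difference each way and called genes, and in each pathway list for called genes or else as the difference of the 2 of smallest p; values of Col1a2, Col6a3, Pcolce, the ranges of Col5a3 and the second Col1a1 probe set lie outside this rule and were chosen after they were seen. Members and lists were chosen with earlier results of these data known. On simulated data with the real means and spreads of 8433 genes, the model recovered 46% of genes changed by 0.5 log2 units, 86% by 1 and 100% by 2, with 11 false calls. Each gene was drawn independently from a normal distribution, with no array or hybridisation level effects. These rates may therefore not hold for the real arrays. Alternatives covered normalisation, pseudocount, filter, probe set rule, variance model, array weights, blocks and each array left out. Figures were drawn with matplotlib 3.10.9.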

Additional observations from a re-analysis of the deposited data

Results flagged for a closer look

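The values of each collagen gene past the filter, of P4ha1 and of the dimmer Col1a1 probe set were examined within each group. Of these 46 sets of values, 3 had an array far from the rest by Dixon's ratio, a rule that chance meets in about 1 in 20 groups. Col20a1 was low in wild-type replicate 1, at 4.45 on the log2(signal + 16) scale with the nearest array at 6.45, a deposited signal of 7.5. Col4a1 was high in Apoe-deficient replicate 1, at 10.74 with the nearest array at 10.14, a signal of 1690.3. Col6a2 was low in wild-type replicate 4, at 9.17 with the nearest array at 9.41, a signal of 549.2.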

How the results depend on the processing

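Of 14 settings, the count of called collagen genes was 2 with array weights (Col3a1 and Col14a1), 1 with a replicate block (Col5a2) and 0 in the other 12, and leaving out each array gave 0 to 2. Of all genes tested, 7.92% were called with array weights and 2.22% with a replicate block, against 1.93% in the main fit. The share was 0.534% with hybridisation control level as block, 0.294% without the low arrays and 0.0537% within the high arrays. Leaving out each array gave 0.896% to 3.19%. The count of called pathway genes was 1, and 0 with no filter, with each probe set by itself, with a replicate block, with hybridisation control level as block, without the 3 arrays of low hybridisation controls and within the 4 of high controls, with 0 to 2 over the arrays left out. With no filter 1.05% of all genes were called, and with each probe set by itself 1.43% of all probe sets past the filter. The count of called collagen probe sets was 1, and 0 with a replicate block, without the low arrays and within the high arrays, with 1 to 2 over the arrays left out. Of all probe sets, 0.584%, 0.201% and 0.00491% were called in those settings, against 0.765% in the main fit. The arrays left out gave 0.28% to 1.37%. Col3a1 against Col4a1 missed the threshold at 0.60 with the mean of probe sets. It was 0.50 without the low arrays, where the exact test could not pass unless another pair was also extreme. It was 0.62 within the high arrays, where the exact test is too small to pass. It kept its call in the other 4 settings, at 0.78 to 0.83. Col1a1 against Col4a1 turned to -0.17 without the low arrays and -0.20 within the high arrays, and ran from -0.034 to 0.29 over the arrays left out. No gene whose sign turned had passed a test. With no quantile normalisation Col11a1 was -0.029 and Col4a1 0.0019, and with median centring -0.019 and 0.012. With the mean of probe sets Col5a1 was 0.080 and Col6a2 0.050. With that level as a block Col11a1 was -0.20, Col16a1 0.22, Col1a1 -0.11, Col4a1 0.023, Col5a3 0.067 and Col8a1 0.0088. Without the low arrays Col16a1 was 0.26, Col1a1 -0.11, Col4a1 0.065, Col5a3 0.042 and Col8a1 0.048. Within the high arrays Col16a1 was 0.13, Col18a1 -0.085, Col4a1 0.28 and Col6a2 0.040. Over the arrays left out, Col11a1 ran from -0.11 to 0.20, Col11a2 from -0.093 to 0.23, Col16a1 from -0.17 to 0.056, Col18a1 from -0.051 to 0.12, Col4a1 from -0.14 to 0.046 and Col8a1 from -0.10 to 0.063. The causes were not tested.

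Same-numbered arrays had weak correlations of their deviations from the group means (-0.18 to 0.15). Pairs of unlike numbers were not compared, so these values cannot show whether same-numbered arrays belong together. The replicate block, which leaves Apoe-deficient replicate 6 without a partner, gave Col5a2 at 0.56, P4ha1 at 0.65 and the dimmer Col1a1 probe set at 1.91 (limma adjusted p = 0.075). Fits of filtered genes gave no Col20a1 value where fewer arrays passed. The pseudocount moved the dimmer Col1a1 probe set to 2.67 at 1 and 1.21 at 64, and it kept its call at both. Probe sets below the filter lie near background, where signals have little precision.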
